A study of Homo sapiens with 2 samples.

Results

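Distal intergenic DEK regions are places where ChIP-seq peaks of both replicates overlapped by at least 1 bp and whose replicate 1 summit lay 10 kb or more from every annotated RefSeq gene of any biotype, outside stretches of 1 Mb or more without a gene. On chromosomes 1 to 22, 1353 of 12456 shared regions met this rule, a share of 10.9% (exact 95% interval 10.3% to 11.4%). The other 11103 shared regions comprised 2335 outside genes but under 10 kb from one, 8176 inside a gene and 592 in the long gene-free stretches. The positions and the overlap chose the regions, with no limit set on fold enrichment. Overlap needs a called peak in both lists, and stronger peaks were shared more often, so the kept regions lean towards higher folds. All distal peaks, shared or not, had median folds of 4.11 in replicate 1 and 4.07 in replicate 2, against 4.27 and 4.25 in the distal regions. The member closest to the limit lay 10015 bp from a gene, with a fold enrichment of 3.33 in replicate 1 and 4.54 in replicate 2, and the closest region left out lay 9998 bp away, with 4.81 and 3.72.

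The series held 2 libraries, replicates 1 and 2 of 1 group, made from 786-O, a cell line established from a human kidney carcinoma, and no treatment is stated. Both were precipitated with a DEK antibody, both carry a wild-type genotype label, and both are described as negative control and Cas9 samples, with no statement of what the negative control refers to. No input, other-antibody or DEK-depleted sample was analysed here, so every comparison is between classes of regions within these libraries. The labels do not say whether the replicates came from separate cultures, and any spread between them may be technical.

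DEK is an abundant nuclear protein that binds DNA and histones, acts as a histone chaperone and has been studied for its part in chromatin structure, transcription and DNA repair. Sequence between genes holds enhancers, silencers, insulators, repeats and transcripts that no gene model covers, and an enhancer may act on a gene that is not its nearest. A peak far from genes therefore names a place, and the nearest gene gives its address. In renal carcinoma lines such as 786-O the VHL tumour suppressor is lost and hypoxia-inducible factor activity persists. Many of the elements used by this pathway lie away from gene starts.

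Replicate 1 had 18794 peaks on these chromosomes and replicate 2 had 24144, with a median of 19 fragments at the summit in each. The number of fragments limits the precision of a single value, and intervals given for shares and densities cover counting error only.

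The regions' own bases were not read, since no genome sequence was used here, so whether any region lies in repeated sequence is not known. The upstream sequence of 4 of their nearest protein-coding genes is shown because a shared region also overlapped it, so that DEK peaks lay both at the gene's start and far from it. They are the nearest genes with 3 or more distal regions for which this held, a choice made after the values were seen. Each run gives the 250 bases before a RefSeq transcription start (GRCh38.p14), 5′ to 3′ along the gene, and capitals mark the bases that the shared region covered.
CSF2: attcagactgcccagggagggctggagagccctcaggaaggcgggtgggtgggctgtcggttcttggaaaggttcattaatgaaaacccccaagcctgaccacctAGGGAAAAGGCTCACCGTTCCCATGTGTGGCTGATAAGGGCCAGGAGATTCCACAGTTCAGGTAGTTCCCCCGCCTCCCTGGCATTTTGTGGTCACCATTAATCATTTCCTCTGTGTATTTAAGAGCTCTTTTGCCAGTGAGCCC
ZNF608: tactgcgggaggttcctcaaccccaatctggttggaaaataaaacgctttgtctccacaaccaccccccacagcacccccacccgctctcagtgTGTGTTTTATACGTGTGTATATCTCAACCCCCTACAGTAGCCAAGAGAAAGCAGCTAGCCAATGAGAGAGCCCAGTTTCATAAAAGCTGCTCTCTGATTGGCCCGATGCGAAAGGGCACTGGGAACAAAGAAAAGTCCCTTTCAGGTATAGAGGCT
TLE4: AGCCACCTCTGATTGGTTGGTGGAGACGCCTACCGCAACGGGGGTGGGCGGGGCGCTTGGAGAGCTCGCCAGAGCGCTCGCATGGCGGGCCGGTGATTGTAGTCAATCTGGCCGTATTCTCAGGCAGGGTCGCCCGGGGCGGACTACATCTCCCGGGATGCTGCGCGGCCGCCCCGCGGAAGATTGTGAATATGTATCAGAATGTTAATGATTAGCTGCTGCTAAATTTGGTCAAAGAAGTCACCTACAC
RAI14: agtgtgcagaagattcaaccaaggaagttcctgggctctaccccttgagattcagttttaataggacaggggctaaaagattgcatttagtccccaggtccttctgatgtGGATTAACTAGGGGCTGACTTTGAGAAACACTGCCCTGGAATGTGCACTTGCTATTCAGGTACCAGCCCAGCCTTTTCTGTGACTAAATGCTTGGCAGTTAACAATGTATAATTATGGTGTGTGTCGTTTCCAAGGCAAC
The CSF2 window, before the gene of the cytokine GM-CSF, was chr5:132073539-132073788 on the plus strand, and 145 of its bases were covered by a region with fold enrichments of 3.21 and 2.68. The window of ZNF608, a zinc finger gene, was chr5:124748825-124749074 on the minus strand, with 156 bases covered at 3.07-fold and 3.29-fold. The window of TLE4, a Groucho-type corepressor, was chr9:79571715-79571964 on the plus strand, and all 250 bases were covered at 6.24-fold and 4.34-fold. The window of RAI14, a gene for an actin-associated protein, was chr5:34684257-34684506 on the plus strand, with 140 bases covered at 2.46-fold and 2.96-fold. G and C made up 54.0% of the CSF2 window, 50.4% of the ZNF608 window, 59.2% of the TLE4 window and 45.2% of the RAI14 window, against a median of 58.0% over 35093 such RefSeq windows. On both strands, the AP-1 type motif TGANTCA was in none of the 4 windows and in 6.57% of all windows. The letters TATAAA occurred 1 time in the ZNF608 window and in 10.7% of all windows. The letters CCAAT occurred 3 times in the ZNF608 window and 1 time in the TLE4 window, and in 32.0% of all windows. None of the 3 motifs contains another, and a match describes letters only.

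Distal regions were slightly more enriched over their local background than other shared regions, and the difference was the same in both replicates. Fold enrichment is the authors' own value, given for each replicate separately. It is read here as the summit's fragments over the local background, with 1 added to each. Its median in distal regions was 4.27 in replicate 1 and 4.25 in replicate 2, against 4.09 and 4.06 in all other shared regions. Distal regions stood 0.187 above the others in replicate 1 and 0.19 above them in replicate 2, a mean difference of 0.188 ± 0.0023 (SD, n = 2). They also stood above regions under 10 kb from a gene, with medians of 4.11 and 4.07, and above regions inside genes, with 4.01 in both. They stood below regions of the long gene-free stretches, with 6.49 and 6.79. With 2 replicates the exact permutation test over samples (two-sided) cannot go below p = 0.5, which is the value for each of these differences, so none can pass 0.05.

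The higher ratio went with a lower denominator. The local background solved from the deposited values had a median of 3.65 fragments in replicate 1 and 3.91 in replicate 2 at distal regions, against 4.29 and 4.63 at all other regions. The summits of distal regions held medians of 19 and 20 fragments, against 21 and 23 at the others. Distal regions thus had fewer fragments at the summit and a lower local background, and their part in the fold difference was not tested. Whether this background came from the same library or from a control is not stated. Peak widths had medians of 320 bp and 329 bp in distal regions, against 320 bp and 338 bp in the others. The median −log10 q was 5.13 and 5.48 in distal regions, against 5.15 and 5.51 in the others, differences of −0.0186 and −0.0301.

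**Figure D1:**
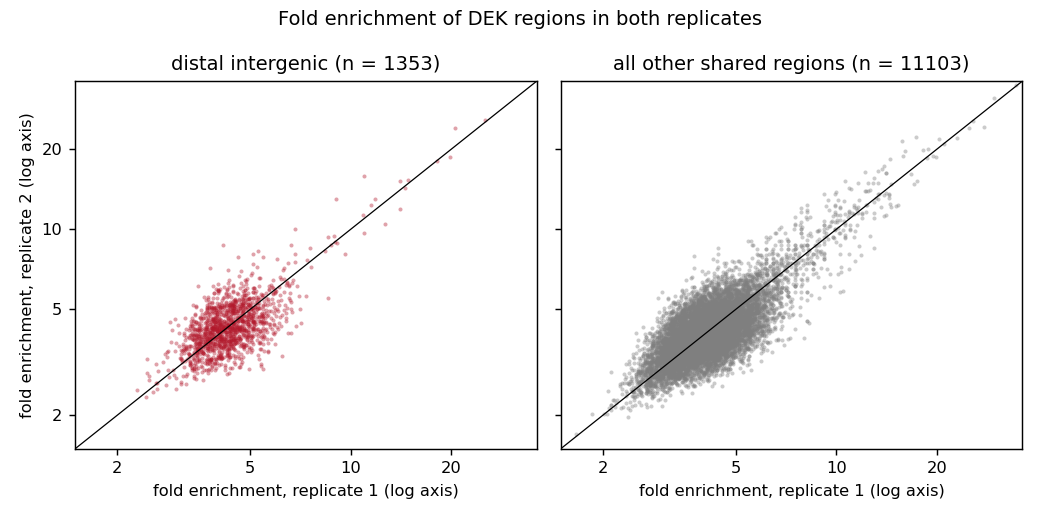
Fold enrichment in replicate 1 (x axis) and replicate 2 (y axis), both on log axes, for 1353 distal intergenic regions (left) and 11103 other shared regions (right); each point is 1 region and the line marks equal values. Most distal points lie between 3 and 6 in both replicates, with a thin tail along the line up to 25.2 and 25.8.

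Most distal regions were modest, and few were strong. The middle 50% of distal regions lay between 3.8 and 4.85 in replicate 1 and between 3.74 and 4.94 in replicate 2. A fold enrichment of 5 or more in both replicates was seen in 134 distal regions, 9.9% of them (exact 95% interval 8.36% to 11.6%), against 10.3% of all shared regions. At 10 or more in both replicates there were 13, or 0.961% (0.513% to 1.64%), against 0.867% of all shared regions. Both shares were near the background of all regions, but that background was uneven. Regions of 5 or more made up 8.61% of those under 10 kb from a gene, 6.29% of those inside genes and 72.6% of those in long gene-free stretches. Regions of 10 or more made up 0.343%, 0.135% and 12.8% of the same classes. The distal share of 0.961% thus stood above both classes in or near genes and below the gene-free stretches, from 13, 8, 11 and 76 regions in the distal, near, inside and gene-free classes.

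The folds of the replicates ranked distal regions less alike than other regions. Across 1353 distal regions Spearman's rho between replicates was 0.519, against 0.63 across the 11103 other shared regions. Both are given as a description because all points come from the same pair of libraries. The others include 592 regions of gene-free stretches, with median folds of 6.49 and 6.79. Such a spread between classes can raise rho, which was not computed for each class, so lower reproducibility of distal folds is not shown. The summits of the replicates lay a median of 71 bp apart in distal regions and 68 bp in the others. They were within 100 bp in 64.2% of distal regions and 64.6% of the others. The median absolute log2 ratio of the folds was 0.18 in distal regions and 0.17 in the others. Summits were thus about equally close in both groups. The overlap that defined shared regions limits this distance, so it does not measure how well position is reproduced.

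A peak far from genes was about as often found again as any other peak. In replicate 1, 1387 of 2059 distal peaks overlapped a replicate 2 peak, a share of 67.4% (65.3% to 69.4%), against 67.9% of all replicate 1 peaks. In replicate 2, 1371 of 2713 distal peaks overlapped a replicate 1 peak, a share of 50.5% (48.6% to 52.4%), against 52.3% of all replicate 2 peaks. The share climbed with peak strength: by quartile of −log10 q from low to high it was 42.9%, 60.2%, 77.7% and 89.6% for distal peaks of replicate 1, against 46.9%, 58.0%, 73.9% and 92.8% for other peaks. In replicate 2 it was 27.6%, 39.2%, 54.0% and 84.1% for distal peaks, against 27.3%, 41.6%, 56.7% and 84.5% for others. Distal peaks in the weakest quartile of replicate 1 were thus found again in under 50% of cases, and those in the strongest quartile in most.

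Sequence far from genes was sparsely occupied. Positions that meet the distance rule made up 703 Mb, 25.1% of the span between the first and last gene of each chromosome, with assembly gaps not removed. They held 1.92 shared regions per Mb (exact Poisson 95% interval 1.82 to 2.03), against 5.28 per Mb (5.18 to 5.38) of all other sequence outside the long gene-free stretches. Sequence under 10 kb from a gene held 6.02 per Mb and sequence inside genes 5.1 per Mb. Each replicate alone gave the same order, with 2.93 and 3.86 distal peaks per Mb in replicates 1 and 2, against 8.06 and 10.3 per Mb of all other sequence. These intervals count regions as independent and are no test over samples.

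Within the distal space, regions thinned out step by step with distance from genes. The median distance to the nearest gene was 22.8 kb, with the middle 50% between 15.0 kb and 39.9 kb and a range of 10.0 kb to 395 kb. At 10 to 20 kb lay 558 regions, at 20 to 50 kb 539, at 50 to 100 kb 191 and at 100 to 500 kb 65. The density over the same bins was 2.95, 2.06, 1.25 and 0.651 regions per Mb. Regions closest to genes took up 41.2% of all distal regions in 26.9% of the distal sequence, and those at 100 kb or more took up 4.8% in 14.2% of it. Peaks of each replicate gave the same falling order.

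**Figure D2:**
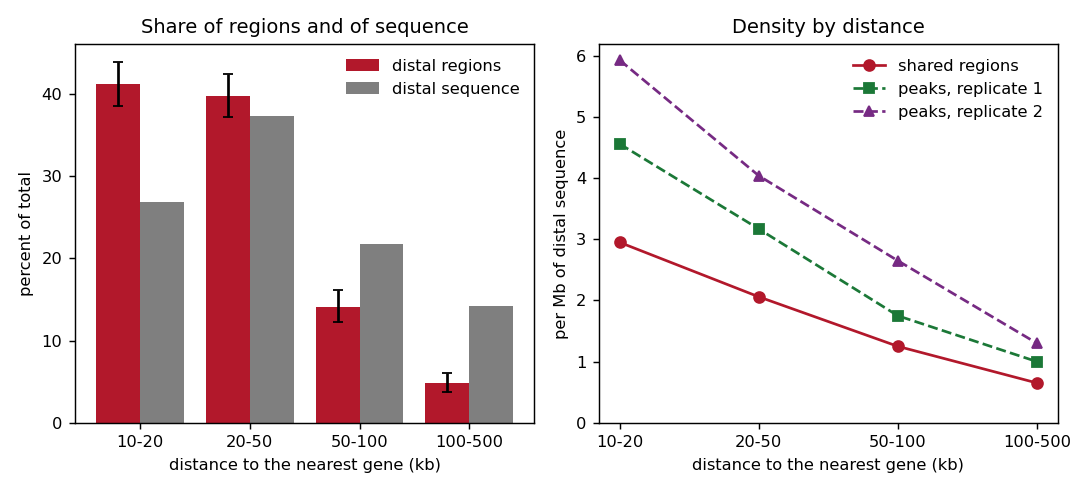
Left, percent of distal regions (red, with exact 95% intervals) and of distal sequence (grey) by distance to the nearest gene in kb; right, shared regions and peaks of each replicate per Mb of distal sequence in the same bins. The region density falls over the bins from 2.95 to 0.651 per Mb.

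Enrichment changed little over the same distances. Median folds over the 4 bins were 4.19, 4.28, 4.45 and 4.42 in replicate 1 and 4.21, 4.31, 4.29 and 4.33 in replicate 2. The local background fell over the bins in replicate 1, with medians of 3.8, 3.67, 3.29 and 3.26 fragments, and was 4.07, 3.93, 3.54 and 3.72 in replicate 2. Spearman's rho between distance and mean fold was 0.109 across the 1353 regions, a weak relation given as a description. Regions 100 kb or more from a gene were thus few, and no weaker in fold than those at 10 to 20 kb.

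The 5 regions farthest from any gene all lay 223 kb or more away. The farthest, chr18:40868175-40868471, was 395 kb from the small nuclear RNA gene LOC124904364 and had folds of 5.88 and 4.36 (mean 5.12 ± 1.08, SD, n = 2). The nearest protein-coding gene to it was PIK3C3, the catalytic subunit of the class III phosphoinositide 3-kinase, at 1090 kb. The region at chr8:139196679-139197193, with 6.17 and 5.42, lay 283 kb from COL22A1, a collagen gene. The region at chr20:28841945-28843052, with 4.09 and 3.32, lay 238 kb from the pseudogene FRG1DP. The region at chr5:51652992-51653214, with 4.96 and 3.79, lay 258 kb from ISL1, which encodes a LIM-homeodomain transcription factor. The region at chr4:126850284-126850719, with 5.04 and 6.71, lay 782 kb from INTU, a gene of cilium formation. Replicate 1 was higher than replicate 2 at 4 of these 5 regions, and all 10 values lay above 3.

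Long gaps between genes were more often occupied but less densely. Of 12529 stretches between neighbouring genes that held any distal sequence, 1006 (8.03%) contained a distal region. The share was 3.68% for stretches of 20 to 50 kb, 11.0% at 50 to 100 kb, 15.0% at 100 to 200 kb, 16.5% at 200 to 500 kb and 16.5% at 500 to 1000 kb. The density over the same bins was 3.48, 2.93, 1.89, 0.88 and 0.455 regions per Mb of distal sequence. A single region was held by 785 stretches, 2 regions by 141, 3 regions by 56 and 4 or more by 24.

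The gene bordering a distal region was most often a long non-coding RNA gene. It was nearest to 627 regions, 46.3% of all, where such genes are 31.3% of the gene table. Protein-coding genes were nearest to 399 regions (29.5%, against 33.8% of the table) and pseudogenes to 275 (20.3%, against 25.3%). The remaining regions were nearest to miRNA, snoRNA, snRNA and tRNA genes or transcribed pseudogenes. These shares depend on where each kind of gene stands along the chromosome as well as on the regions.

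Density differed several-fold between chromosomes, and it followed the density of the other DEK regions. Chromosome 17 held 5.0 distal regions per Mb of distal sequence (3.85 to 6.39), and chromosome 19 held 3.7 (2.19 to 5.84). Chromosome 13 held 0.841 (0.563 to 1.21) and chromosome 14 held 0.847. Chromosome 2 had the most regions, 184 or 13.6% of all, at 2.8 per Mb. Across 22 chromosomes, distal density and the density of regions in and near genes had a Spearman's rho of 0.822, given as a description because both come from the same libraries. The local background at distal regions moved with it: rho between distal density and median background was 0.661 in replicate 1 and 0.644 in replicate 2, and copy number of this aneuploid line was not used here. On chromosome 14 the median background was 2.24 and 2.56 fragments, against 4.57 and 4.74 on chromosome 16, and the part of such differences in the densities was not tested.

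**Figure D3:**
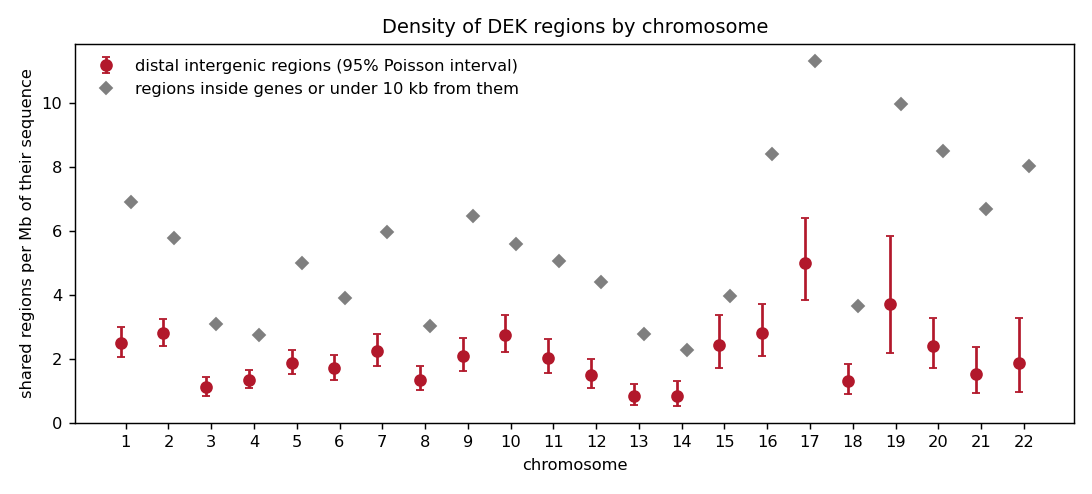
Shared regions per Mb of their own sequence class (y axis) on chromosomes 1 to 22 (x axis); red points are distal intergenic regions with exact 95% Poisson intervals and grey diamonds are regions inside genes or under 10 kb from them. Distal density is highest on chromosome 17, at 5.0 per Mb, and lies below the grey diamond on every chromosome.

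The strongest distal regions were chosen by fold percentile over both replicates, so similar folds in the replicates are partly set by the choice. Repeats at these regions were not examined, and how reads from repeated sequence were aligned is not stated. The 10 with the highest mean percentile lay on chromosomes 2, 4, 6, 13, 21 and 22. The highest was chr13:109424044-109424433, with folds of 25.2 and 25.8 (mean 25.5 ± 0.422, SD, n = 2) and 148 summit fragments in each replicate. It lay 19.9 kb from the RNA gene LOC105370359 and 216 kb downstream of MYO16, which encodes an unconventional myosin. On chromosome 6, chr6:61322834-61323206 had 20.5 and 23.9, 220 kb downstream of KHDRBS2, an RNA-binding protein gene. Its local background was 1.93 and 2.09 fragments, the lowest value in each library.

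Chromosome 21 supplied 3 of these 10 regions. The region at chr21:10270184-10270519 had 19.8 and 18.8, 251 kb upstream of TPTE, a testis-expressed phosphatase-related gene. The region at chr21:7926145-7926593 had 18.1 in both replicates, 96.8 kb from the predicted gene LOC102723475. The region at chr21:43262456-43262910 had 14.5 and 14.2, 65.6 kb from the predicted gene LOC124905027. All 3 held 69 to 133 fragments at the summit, well above the median distal region.

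On chromosome 4, chr4:189233830-189234120 had 14.8 and 15.3, 707 kb upstream of FRG1, a gene near the end of the long arm. The region chr4:1434781-1435701 had 14.0 and 11.9 and lay 29.0 kb upstream of NKX1-1, a homeobox gene. On chromosome 22, chr22:16352716-16352987 had 14.0 and 15.2, 238 kb downstream of CCT8L2, a chaperonin-like gene. The last 2 lay on chromosome 2: chr2:239644452-239644913 had 11.8 and 13.0, 243 kb upstream of HDAC4, a class IIa histone deacetylase gene. The other, chr2:5022589-5022862, had 10.9 and 15.8 (mean 13.4 ± 3.48, SD, n = 2), 670 kb from SOX11, a transcription factor gene. This region had the widest spread of the 10, and 31 and 51 summit fragments.

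Distal regions had fewer close neighbours than other shared regions, and 17.6% of them sat in a cluster. The next shared region of any class lay a median of 42.1 kb from a distal region, against 23.6 kb from another shared region. It lay within 10 kb of 22.8% of distal regions and 29.1% of the others, and within 50 kb of 53.8% and 68.7%. A cluster was taken as 3 or more distal regions in 1 stretch without a gene, with successive summits within 50 kb. By this rule 238 distal regions (17.6%, 15.6% to 19.7%) formed 68 clusters. Of these, 51 had 3 regions, 11 had 4 and 6 had 5 or more, and the median span was 27.0 kb.

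Clustered regions were less enriched than the other distal regions, over a higher background. Their median folds were 4.07 and 4.08, against 4.32 and 4.28 for the 1115 distal regions outside clusters. Their median backgrounds were 5.03 and 5.31 fragments, against 3.49 and 3.72. Chromosome 2 held 46 of the clustered regions, and chromosomes 13, 14 and 22 held none. The part of the background in the fold difference was not tested.

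Clusters are described from the largest down; of the 3 with 5 regions, the 2 with the smaller span were taken, and the other lay on chromosome 2 near COL6A3 and MLPH (42.4 kb). The largest cluster, chr16:34571629-34595819, put 10 regions into 22.8 kb of a 546 kb stretch without a gene. Its folds ran from 2.44 to 7.61 in replicate 1 and from 2.35 to 7.19 in replicate 2, with the same region highest in both, chr16:34573888-34574385. The median local background there was 43.4 and 47.1 fragments, against 3.65 and 3.91 over all distal regions, and summits held up to 201 and 207 fragments. Both signal and background were thus far above other distal regions, and the sources do not state how reads from repeated sequence were aligned. The nearest gene was the long non-coding RNA gene LOC102724523, and the nearest protein-coding gene, LOC124903767, lay 183 to 206 kb away.

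The next cluster, chr4:49102317-49149887, put 9 regions into 47.2 kb downstream of CWH43, a gene of lipid remodelling in GPI-anchored proteins. Its median local background was 7.21 and 8.8 fragments, and repeats were not examined here either. Replicate 1 gave 3.35 to 7.39 and replicate 2 gave 4.04 to 7.65, and replicate 2 was higher at each of the 9 regions. The highest region in both was chr4:49149141-49149887, with 7.39 and 7.65, the one farthest from CWH43 at 87.7 kb. The smallest was chr4:49147281-49147531 in replicate 1, at 3.35, next to it. A further 3 regions lay 234 to 255 kb downstream of the gene, with 3.96 to 6.61 in replicate 1 and 3.24 to 6.19 in replicate 2, where replicate 1 was the higher at each.

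In the third cluster, chr2:234111645-234179074, 7 regions spanned 66.8 kb downstream of SPP2, a secreted phosphoprotein gene. Folds were even here, from 3.71 to 4.78 in replicate 1 and from 2.9 to 4.77 in replicate 2. A second cluster of 4 regions followed at 142 to 181 kb from SPP2, with 3.22 to 4.27 in replicate 1 and 3.44 to 3.8 in replicate 2. None of these 11 regions reached 5-fold in either replicate.

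The cluster upstream of NKX1-1, chr4:1427650-1441958, held 5 regions in 13.9 kb at 21.5 to 35.4 kb from the gene. In order along the chromosome their folds in replicate 1 were 4.63, 4.61, 4.8, 14.0 and 6.83. In replicate 2 they were 5.47, 4.78, 5.57, 11.9 and 10.0. The fourth region stood out in both replicates, and the fifth had 19 and 30 summit fragments over the lowest background of each library.

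The cluster downstream of PPP1R2, a gene for an inhibitor of protein phosphatase 1, was chr3:195483557-195501685, with 5 regions in 17.8 kb. In order along the chromosome their folds were 9.08, 3.85, 4.16, 4.62 and 4.38 in replicate 1 and 8.86, 3.04, 4.21, 4.22 and 4.82 in replicate 2. The first region, 30.7 kb from the gene, was more than 1.5 times any other of the cluster in each replicate. The other 4 lay at 13.0 to 28.2 kb, with 3.85 to 4.62 in replicate 1.

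**Figure D4:**
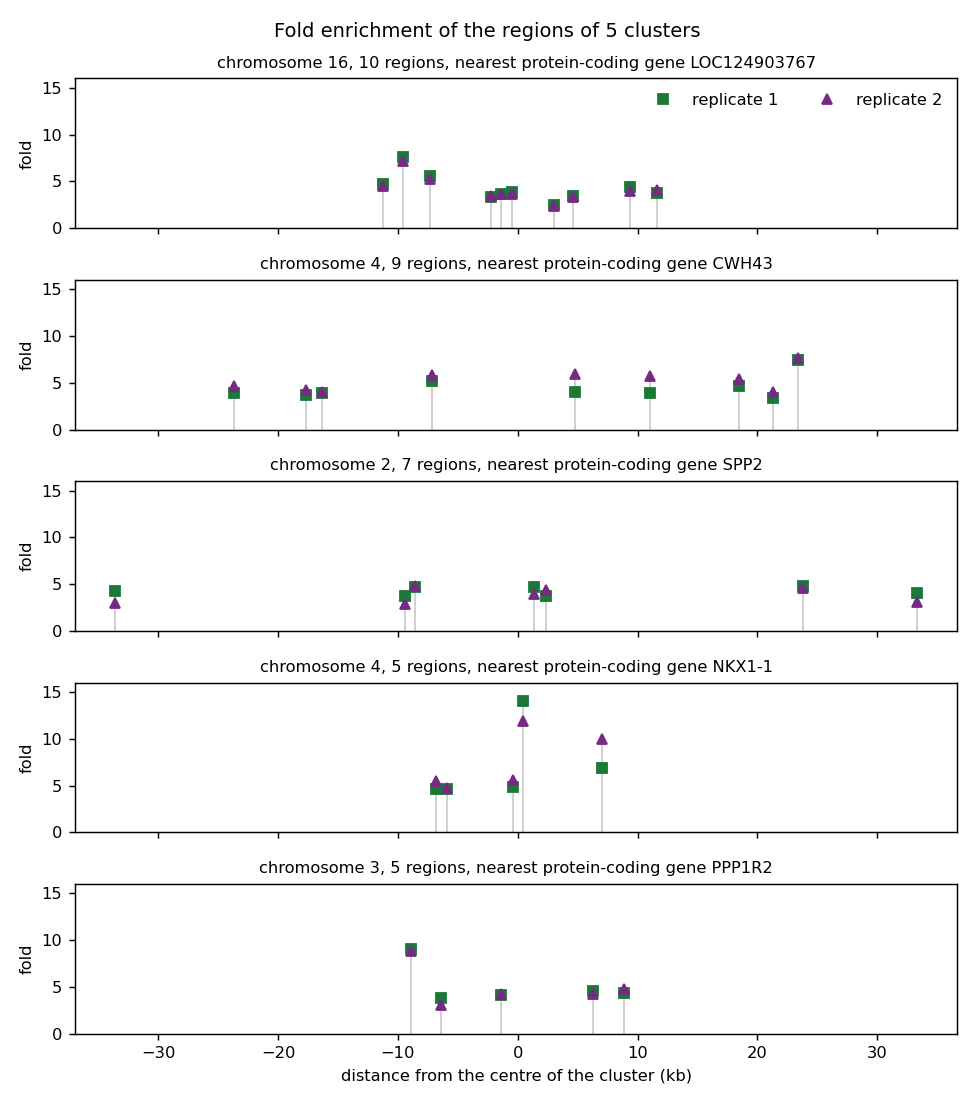
Fold enrichment (y axis) of each region of 5 clusters, the largest by number of regions with ties broken by smaller span, against its distance from the cluster's centre in kb (x axis), with green squares for replicate 1 and purple triangles for replicate 2. Single regions rise above the rest near NKX1-1, at 14.0 and 11.9, and near PPP1R2, at 9.08 and 8.86, while the 7 regions near SPP2 stay below 5.

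The nearest protein-coding gene stood a median of 58.7 kb from a distal region, with 75% of them nearer than 145 kb and a range of 10.0 kb to 3710 kb. The regions had 949 different nearest protein-coding genes, and 947 of the 8438 genes that could be nearest to a distal position inside the first and last gene of a chromosome were nearest to at least 1, or 11.2%. Most of these genes had 1 region: 707 genes (74.5%) did, and they held 52.3% of all regions. A further 151 genes had 2 regions, 59 had 3, 18 had 4, 7 had 5, 3 had 6, 1 had 8, 2 had 11 and 1 had 12. Among 1051 regions whose nearest gene had a known strand, 567 (53.9%, 50.9% to 57.0%) lay upstream and 484 downstream, where 51.6% of the matching sequence was upstream.

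Genes next to distal regions more often held a DEK region themselves, and they were longer genes in wider gaps. A shared region lay inside 319 of the 947 nearest genes (33.7%, 30.7% to 36.8%), against 1667 of the 7491 genes that could be nearest but were not (22.3%, 21.3% to 23.2%). Their median length was 55.1 kb against 40.0 kb, and the median distal sequence they were nearest to was 81.7 kb against 17.3 kb. The part of length and gap size in the difference was not tested. At the genes' ends, within 1 kb, the shares were 4.12% and 4.02%, against 6.62% of all protein-coding genes. A shared region overlapped the 250 bases upstream of 25 of 729 nearest genes with a RefSeq promoter (3.43%, 2.23% to 5.02%). The share was 3.03% of the genes that could be nearest but were not, and 4.69% of all protein-coding genes with a promoter. Nearest genes thus lay below the share over all genes at both places.

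The 10 genes nearest to most regions ranged from 5 to 12 regions each; 7 genes tied at 5, and the 3 with the highest mean fold percentile were taken. CWH43 had 12, the predicted gene LOC124903767 had 11 and SPP2 had 11, mostly in the clusters above. Whether repeated or centromere-flanking sequence adds to these counts was not tested. AUTS2, a gene of a Polycomb-type complex linked to neurodevelopment, had 8, all upstream at 225 to 907 kb. Their folds were 3.74 to 5.23 in replicate 1 and 3.71 to 5.22 in replicate 2, and no region of AUTS2 reached 5 in both. They lay in 4 stretches of 964 kb of distal sequence, a density of 8.3 per Mb.

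USP24, a deubiquitinase gene on chromosome 1, had 6 regions at 95.4 to 504 kb, with 4.42 to 5.55 in replicate 1 and 3.55 to 6.68 in replicate 2. TNS3, a focal adhesion protein gene, had 6 at 19.0 to 528 kb, with 4.29 to 5.45 and 2.9 to 6.47. Among the 6 TNS3 regions, the widest difference between replicates was at chr7:46764184-46764480, with 4.32 and 6.47. NRP1, a receptor for semaphorins and VEGF, had 6 at 21.3 to 119 kb with lower folds, 2.46 to 4.35 and 2.76 to 4.21. MTCL1, a microtubule crosslinking protein gene, had 5 downstream at 17.1 to 129 kb, with 3.99 to 5.87 and 4.06 to 6.47. USP24, TNS3, NRP1 and MTCL1 each also held a shared region inside the gene, while CWH43, SPP2, AUTS2, NKX1-1 and PPP1R2 held none.

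**Figure D5:**
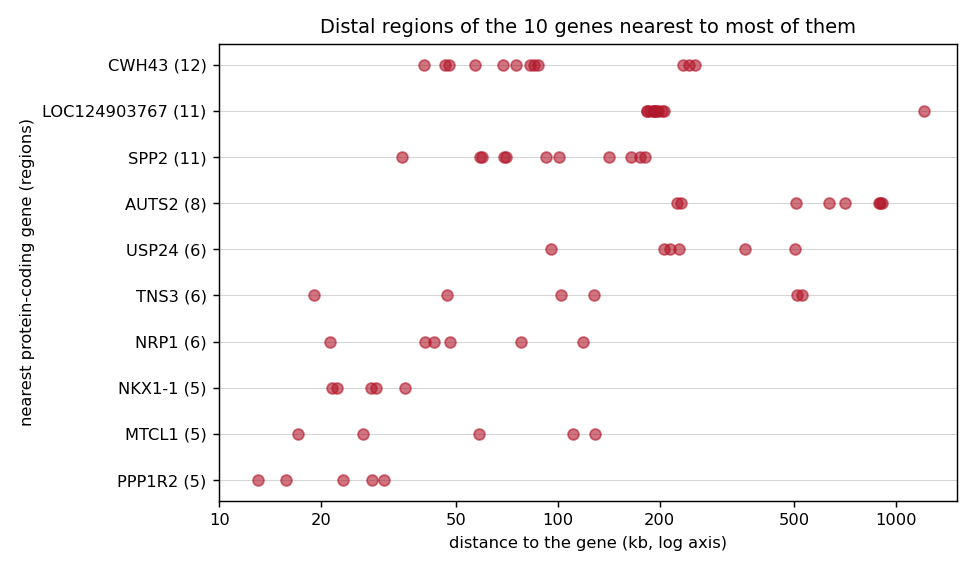
Distance in kb on a log axis (x axis) from each distal region to its nearest protein-coding gene, for the 10 genes nearest to most regions, with ties broken by fold percentile (y axis, number of regions in parentheses); each point is 1 region. Regions of PPP1R2 and NKX1-1 lie within 13.0 to 35.4 kb, and those of AUTS2 at 225 to 907 kb.

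Gene lists by function are given beside all genes that could be nearest, of which 11.2% were. Every list with a region had a share above that, but for short lists 1 nearest gene is enough. In the renal tubule and epithelial list, 1 of 8 already gave 12.5%. The immune marker list and the list of renal carcinoma mutations held no region, each with 0 of 5. For short lists, a share above 11.2% is therefore no finding. Of 70 developmental transcription factor genes that could be nearest, 21 were (30.0%, 19.6% to 42.1%), with 37 regions at 2.4 per Mb of their distal sequence, against 1.92 per Mb over all genes. Of 23 AP-1 and immediate-early genes, 8 were (34.8%, 16.4% to 57.3%), with 14 regions at 4.79 per Mb. The share depends on how much distal sequence a gene borders, so the density is given beside it. Density in turn fell with stretch length over all regions, from 3.48 per Mb at 20 to 50 kb to 0.455 at 500 to 1000 kb. The lists were not matched for stretch length. The intervals cover counting error only, and no test over samples applies to a list.

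SOX9, a transcription factor gene of cartilage and epithelial development, had 5 regions from 25.3 to 708 kb away. The closest, chr17:72151513-72152204, had 5.05 and 5.06, the highest of the 5 in both replicates. RUNX2, the bone transcription factor gene, had 4 downstream at 69.0 to 152 kb, with 3.36 to 4.36 and 3.0 to 5.05. KLF6, an immediate-early zinc finger gene, had 3 upstream at 67.2 to 102 kb, and their folds fell with distance in both replicates, 4.8, 4.29 and 3.53 in replicate 1 and 4.75, 4.37 and 3.26 in replicate 2. DUSP5, a nuclear phosphatase of ERK, had 3 at 11.0 to 82.9 kb, with 3.62 to 4.19 and 3.02 to 4.31. KLF6 also held shared regions inside and at an end of the gene, and SOX9 and DUSP5 held none.

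Kidney gene lists were short, and their shares and densities did not point one way. Of 27 renal transcription factor genes that could be nearest, 6 were (22.2%, 8.62% to 42.3%, against 11.2% of all genes), with 8 regions at 1.39 per Mb, against 1.92 per Mb over all genes. PAX2, a renal lineage transcription factor gene, had 2 regions 38.1 and 38.6 kb upstream, with 3.81 and 4.38 in replicate 1 and 5.04 and 4.55 in replicate 2. TFAP2A had 2 at 857 and 914 kb, with 4.18 and 4.41 in replicate 1 and 4.53 and 3.81 in replicate 2. Of 8 renal tubule and epithelial genes, 1 was nearest (12.5%), and its 5 regions gave a density of 4.58 per Mb. That gene was CDH6, a cadherin gene of the tubule, with regions at 73.1 to 914 kb and folds of 3.53 to 4.77 and 3.72 to 5.46. Among marker genes, 3 of 11 renal epithelial genes were nearest to a region (27.3%), with 8 regions at 5.83 per Mb that include those of CDH6 and PAX2. Of the other markers, 2 of 6 neuronal genes (33.3%, 2.34 regions per Mb) and 0 of 5 immune genes were. The neuronal genes were MAP2, with 4.84 and 5.66 at 55.0 kb, and GAD2, with 4.3 and 7.01 at 61.5 kb. Peaks do not measure expression, so these counts do not test the cell type.

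The 4 distal regions nearest to hypoxia-related genes had median folds above the distal median. Of 19 such genes that could be nearest, 3 were (15.8%, 3.38% to 39.6%, against 11.2% of all genes). The density was 4.09 regions per Mb, from only 0.978 Mb of distal sequence, against 1.92 per Mb over all genes. The part of stretch length in this density was not tested. Median folds were 5.18 and 5.56, against 4.27 and 4.25 over all distal regions. CCND1, the gene of cyclin D1, had 2 regions on chromosome 11. The one at chr11:69541422-69542169, 99.1 kb from the gene, had 6.3 and 7.15, and the one at chr11:69588402-69588625, 52.6 kb away, had 4.57 and 4.94. PLIN2, a lipid droplet coat protein gene, had 1 region 34.3 kb upstream, with 5.79 and 6.18. CCND1 also held a shared region at an end of the gene and PLIN2 held none. No gene of the list of those mutated in clear cell renal carcinoma was nearest to a distal region, with 0 of 5 that could be, which allows a share of up to 52.2% by the exact interval.

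Regions nearest to matrix and inflammatory genes had median folds below the distal median. Of 30 mesenchymal and matrix genes, 7 were nearest (23.3%), with 12 regions at 3.12 per Mb and median folds of 4.0 and 3.56. COL5A1, a fibrillar collagen gene, had 4 upstream at 16.9 to 76.9 kb, with 3.44 to 4.23 and 3.48 to 5.13, and TWIST2, a transcription factor gene of mesenchyme, had 2 that were 38.2 and 38.6 kb downstream. Of 19 NF-kB and inflammatory genes, 3 were nearest (15.8%), with 9 regions and median folds of 3.5 and 3.55. Of these 9 regions, 8 were those of CSF2 and NFKBIZ. The density of 10.3 per Mb came from only 0.872 Mb of distal sequence, and the part of stretch length in it was not tested. CSF2 had 4 regions 10.3 to 27.6 kb downstream, with 3.61, 2.64, 3.5 and 2.84 in replicate 1 and 2.71, 2.65, 4.06 and 3.49 in replicate 2, in order of distance. These were among the weaker distal regions, and CSF2 was the gene whose upstream window, shown above, also lay partly under a shared region. NFKBIZ, the gene of an atypical inhibitor of NF-kB, had 4 downstream at 68.1 to 253 kb, with 3.39 to 4.84 and 3.43 to 4.26.

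The receptor, adhesion and nuclear receptor genes named here had 1 to 3 distal regions each. Of 37 receptor tyrosine kinase and ligand genes, 6 were nearest (16.2%), with 7 regions at 0.859 per Mb. KIT had 2 upstream, with 4.44 and 4.45 at 89.5 kb and 4.66 and 4.95 at 159 kb, and PDGFC had 1 at 284 kb with 6.11 and 4.46. Of 56 cell adhesion and guidance genes, a list picked for genes beside long intergenic stretches, 13 were nearest (23.2%), with 19 regions in 41.0 Mb, or 0.464 per Mb. TENM4, a teneurin gene, had 2 at 656 and 1560 kb, with 5.68 to 5.7 in replicate 1 and 4.41 to 6.13 in replicate 2, and SEMA3C, a secreted semaphorin gene, had 3 at 19.5 to 233 kb. Of 23 nuclear receptor genes, 4 were nearest, with 5 regions at 1.25 per Mb and median folds of 4.95 and 5.24. NR2F2 had 2 of these, with 6.44 and 6.35 at 88.7 kb downstream and 4.95 and 5.24 at 526 kb upstream, and RORB had 1 at 419 kb with 6.15 and 5.64. Long stretches had low densities over all genes, as given above, so the density of the adhesion list is no finding about its members.

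Of the genes whose upstream windows are shown, ZNF608 had 3 distal regions at 183 to 660 kb, TLE4 had 3 at 315 to 549 kb and RAI14 had 3 at 46.9 to 190 kb. Their median distal folds were 4.28 and 3.95 for ZNF608, 4.14 and 3.82 for TLE4 and 3.8 and 3.62 for RAI14. At TLE4 the region over the gene's start exceeded this distal median in both replicates, and at CSF2, ZNF608 and RAI14 it did not exceed it in both.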

How the data were processed

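DEK ChIP-seq of 786-O cells, 2 replicates of 1 group, was analysed from the peak lists deposited by the authors, called separately per replicate. Per the submitters' processing notes, the build was GRCh38 and the tools included MACS2 2.2.7.1, Bowtie2 2.2.5 and cutadapt 1.18, named with no roles. The use of a control library in calling is not stated. The deposited columns hold a score, a fold enrichment (a linear ratio at the summit) and −log10 p and −log10 q values, and the smallest deposited −log10 q was 1.309 in both. Peaks outside chromosomes 1 to 22 (1.75% and 1.77%) were left out. No list of sequence prone to mapping artefacts was used here to remove peaks.

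Shared regions took the strongest peak per replicate. Summit fragments and local background were solved here from fold and −log10 p, within a relative tolerance of 5e-05 in 99.99% and 100% of peaks. The fold was taken as fragments plus 1 over background plus 1. Genes came from RefSeq GRCh38.p14 (56076 genes, 18969 protein-coding, of which 15100 matched a promoter entry with strand), and 676 rows on scaffolds or patches were left out. Python 3.11.15, pandas 2.3.3, NumPy 2.4.6 and SciPy 1.17.1 were used, and the region and pileup steps were tested on simulated data. Intervals are exact (Clopper-Pearson or Poisson, 95%). Named regions and genes followed a rule: the 10 highest in fold percentile, the 5 farthest, the 5 largest clusters (ties by smaller span), the 10 genes with most regions (ties by higher percentile) and the 2 leading members of each of 14 lists. Members, lists and rules were chosen with earlier results of these data known. Other thresholds, overlaps, distances and gene sets were tried as alternatives.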

Additional observations from a re-analysis of the deposited data

How the results depend on the processing

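The median fold enrichment of distal regions was 4.07 to 5.86 over the alternatives that moved it, against 4.26 for the mean of both replicates. The limits on fold and −log10 q keep stronger peaks, and counts, densities and distances followed the rule's limits by construction. The fold difference from other shared regions was not recomputed under the alternatives. Each replicate alone gave 2059 to 2713 regions, 2.93 to 3.86 per Mb, a median fold of 4.07 to 4.11, 1305 to 1606 nearest protein-coding genes and 19.3% to 22.9% of regions in clusters. A −log10 q of 5 or more left 504 regions, 0.717 per Mb, a fold of 4.8, 24.4 kb to the nearest gene, 412 nearest genes, 12.1% in clusters and 60.8% and 48.6% of the distal peaks of replicates 1 and 2 shared. A fold of 5 or more left 134 regions, 0.191 per Mb, a fold of 5.86, 28.8 kb to a gene and 78.6 kb to a protein-coding gene, 123 nearest genes, 2.24% in clusters, and 40.4% and 33.8% of peaks shared. A 50% reciprocal overlap gave 1.46 per Mb, 4.3-fold, 14.3% in clusters, and 49.9% and 38.0% shared. With a limit of 5 kb, 15.2% of shared regions were distal, at 2.22 per Mb and 4.22-fold, with 16.5 kb to a gene and 42.3 kb to a protein-coding gene. With 20 kb, 795 regions (6.38%) remained in number, at 1.55 per Mb and 4.33-fold, with 36.1 kb and 84.3 kb, 571 nearest genes and 15.0% in clusters. Without a limit on gene-free stretches 15.6% were distal, at 2.4 per Mb and 4.58-fold, with 36.2 kb and 121 kb, 36.2% in clusters, and 72.1% and 52.8% shared. Stretches under 500 kb gave 2.03 per Mb. Protein-coding genes alone gave 2652 regions (21.3%), 3.47 per Mb, 4.18-fold, 42.7 kb to a gene, 1667 nearest genes and 28.5% in clusters. Joining at 20 kb or 100 kb put 11.1% or 20.5% in clusters. Of 50 named regions, 18 passed the fold limit and 22 met the rule with protein-coding genes alone. The other 76 values, including those under 3 alternatives added after seeing the data, stayed within the interval or within 1.5 times. For the median fold the interval was the mean of the replicate medians ± SD, 4.24 to 4.28. For median distances it was taken from the ranked values. Depth limits single folds, since a median summit held 19 fragments. No paired analysis was possible because the series has 1 group.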
